A study of Mus musculus with 30 samples.

Results

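*Cps1*, *Otc*, *Ass1*, *Asl*, *Arg1*, *Nags*, *Gls2*, *Sds*, *Tat* and *Tdo2* encode enzymes of the urea cycle and of amino acid breakdown, and their RNA was followed in the livers of mice of 3 ages and of mice with and without hepatic *Egr-1*. The 10 genes were listed by name for their role, with earlier results of these data known. They are 10 of the 54429 gene symbols counted in the time course and 10 of the 55471 gene identifiers counted in the genotype experiment, and all 10 passed the filter on low counts in both, among 13361 and 13639 genes. The time course held 18 liver libraries of wild type C57BL/6J mice at 2, 6 and 12 months of age, 6 per age, with 1 library at each of zeitgeber time (ZT, hours after lights on) 1, 5, 9, 13, 17 and 21. The genotype experiment held 12 liver libraries, with 1 WT and 1 KO library at each of 2 times of the day at 2, 6 and 12 months, which gave 6 pairs of the same age and time. The labels name those times only as highest and lowest (H and L below). Per the study's methods this refers to the level of Egr-1 protein, not of its RNA. The times were ZT13 and ZT17 at 2 months, ZT9 and ZT21 at 6 months and ZT5 and ZT21 at 12 months. KO mice lacked *Egr-1* in the liver through *Alb*-Cre acting on floxed *Egr-1*, which is active in hepatocytes and leaves the other liver cells with the gene, and their controls were littermates. The lines had been backcrossed from strain 129 to C57BL/6J, and all mice were male and fed chow. The study's text names several mice per group for the WT and KO data but does not say whether a library pools them, and with 1 library per group and time p-values measure the spread between libraries.

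Protein breakdown leaves nitrogen as ammonia, which is toxic, and the hepatocytes around the portal vein turn it into urea. NAGS makes N-acetylglutamate, the obligatory activator of CPS1, which joins ammonia and bicarbonate to carbamoyl phosphate in the mitochondrion. OTC condenses that with ornithine to citrulline, and ASS1, ASL and ARG1 complete the cycle in the cytosol, where arginase releases urea. GLS2 is the liver glutaminase, which frees ammonia from glutamine beside CPS1, and SDS deaminates serine to pyruvate. TAT and TDO2 catalyse the first and rate-limiting steps of tyrosine and tryptophan breakdown, and glucocorticoids and glucagon are classical inducers of several of these genes.

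Libraries held 13375377 to 16557378 counted reads in the time course and 13747706 to 21748956 in the genotype experiment. Levels are given as CPM, each count divided by its library's total, scaled by edgeR's TMM factors and brought to a common depth, and every call rests on a Benjamini-Hochberg adjusted p under 0.05 over all genes tested in edgeR's quasi-likelihood fit. Hepatocyte markers made up 80779 to 141621 CPM in the time course, summed over 9 of 10 listed genes in the table, and *Alb* alone was between 37556 and 110509 CPM, so that the labelled tissue carried its defining RNA. All 6 libraries of 6 months in the time course stood apart in acute-phase RNA, that of genes raised in an inflamed liver. The summed level of *Saa1*, *Saa2*, *Orm2*, *Lcn2*, *Hp* and *Steap4* was 14746 to 58038 CPM there, 1882 to 2378 CPM at 2 months and 1583 to 4230.0 CPM at 12 months. In the genotype experiment it stayed between 1760.2 and 4592 CPM at all 3 ages. *Egr-1*, at H and L of 2, 6 and 12 months, had 2.54, 1.45, 72.2, 25.0, 5.87 and 55.3 CPM in WT and 1.96, 7.36, 5.49, 4.97, 6.15 and 1.54 CPM in KO. Its level was below that of the WT partner in 4 of the 6 KO libraries. The KO library exceeded its WT partner at the L time of 2 months (7.36 against 1.45 CPM) and at the H time of 12 months (6.15 against 5.87 CPM), so these are the libraries labelled KO, and the genotype results are also given without these 2 pairs.

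Promoter sequence upstream of the start site was available from RefSeq for 5 of the 10 genes on GRCm38.p6, *Otc*, *Ass1*, *Nags*, *Tat* and *Tdo2*. Shown are *Otc* and *Ass1*, 2 genes of the cycle that fell at 6 months, and *Nags*, the 1 of these 5 called for a daily rhythm. That call was lost in 6 of 9 fits that left out 1 ZT or 1 age, and *Asl*, also called, had no promoter available. The sequences run 5′ to 3′ on the strand of the gene, up to the base before the gene begins in both RefSeq and GENCODE M21. Capitals mark each CG pair.

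*Otc*, chrX:10252055-10252304, plus strand: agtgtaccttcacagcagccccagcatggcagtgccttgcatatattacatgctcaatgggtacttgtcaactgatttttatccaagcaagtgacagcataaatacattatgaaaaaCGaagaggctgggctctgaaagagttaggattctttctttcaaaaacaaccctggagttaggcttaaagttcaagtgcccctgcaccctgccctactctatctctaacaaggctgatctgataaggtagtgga

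*Ass1*, chr2:31470020-31470206, plus strand: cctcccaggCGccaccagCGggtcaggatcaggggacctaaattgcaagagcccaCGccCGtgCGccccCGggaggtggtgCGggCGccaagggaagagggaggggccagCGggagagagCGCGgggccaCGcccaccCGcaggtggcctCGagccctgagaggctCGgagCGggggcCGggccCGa

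*Nags*, chr11:102145263-102145512, plus strand: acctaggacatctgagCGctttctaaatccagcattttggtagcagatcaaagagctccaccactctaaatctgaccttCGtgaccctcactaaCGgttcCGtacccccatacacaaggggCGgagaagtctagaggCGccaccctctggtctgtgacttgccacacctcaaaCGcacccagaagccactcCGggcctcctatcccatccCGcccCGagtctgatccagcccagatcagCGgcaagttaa

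The 3 promoters differed widely in base composition. In the 250 bases before the RefSeq start, *Ass1* had 23 CG pairs and 75.6% G or C, *Nags* had 11 and 55.6%, and *Otc* had 1 and 43.6%, against a median of 6 and 52% over all 27025 genes with a promoter in the table. Both strands were searched for the letters of an E-box (CACGTG), D-boxes (TTATGTAA and TTACGTAA), a CRE (TGACGTCA) and its core (TGACG), which lies within it, a C/EBP site (TTNNGCAA), a STAT site (TTCNNNGAA), an EGR site (GCGNGGGCG), a TATA box (TATAAA) and a CCAAT box (CCAAT). Among these 3 windows the search found 1 match, an E-box of *Ass1* 31 to 36 bases before the RefSeq start, inside the first exon of GENCODE at chr2:31470225-31470248, plus strand: gcccgtcccCACGTGtcccaggtt with the E-box in capitals. An E-box was present in 6.05% of all promoters of that length, the D-boxes in 0.862% and 0.0999%, the CRE in 1.62%, its core in 17.9%, and the C/EBP, STAT and EGR sites in 9.55%, 7.18% and 4.65%. *Tat* held the letters of 3 CCAAT boxes and *Tdo2* those of 1 CCAAT box and 1 TATA box, which 34.5% and 13% of all promoters hold. All 250 bases of the *Tdo2* window lie inside the gene as GENCODE annotates it. Its TATAAA lies 224 to 229 bases before the RefSeq start.

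Per length of annotated exon, the 10 genes spanned a wide range of abundance in young liver. At 2 months *Ass1* (719 ± 111 FPKM, SD, n = 6), *Arg1* (676 ± 57.5), *Cps1* (619 ± 34.4) and *Tdo2* (609 ± 65.3) lay within their spreads of one another on the FPKM scale, counts scaled by exon length and library total. *Tat* followed with 421 ± 142 FPKM, a spread that reached that of *Tdo2*, then *Otc* with 181 ± 14.3 and *Asl* with 104 ± 43.5 FPKM. *Gls2* (89.6 ± 9.72 FPKM) did not differ from *Asl* beyond the spread. *Sds* (50.7 ± 15.8 FPKM), whose spread also reached that of *Asl*, and *Nags* (21.5 ± 4.15 FPKM) had the lowest means, *Nags* below *Sds*. *Nags*, whose enzyme makes the activator of CPS1, was thus the lowest of the 10, and *Cps1* was among the 4 highest.

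**Figure D1:**
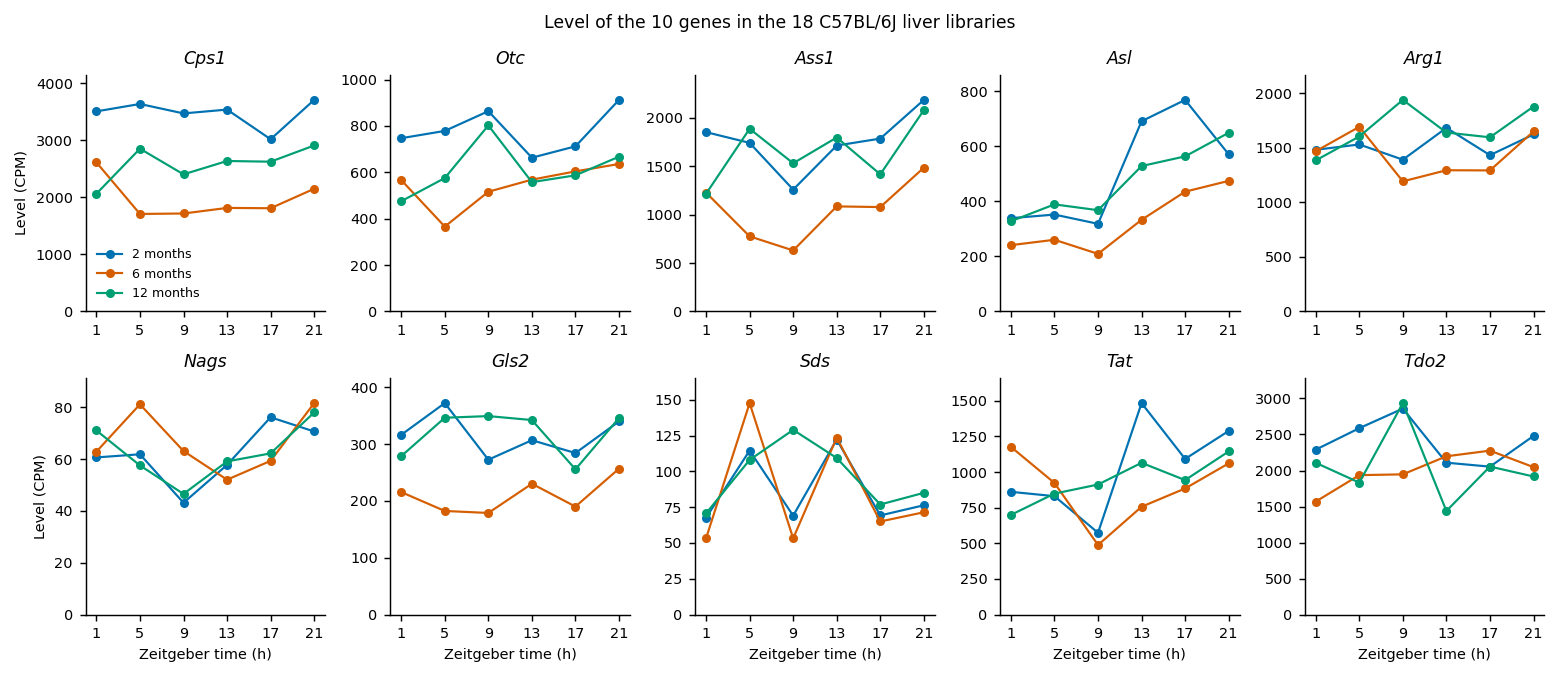
Level in CPM (y axis, from 0) of each of the 10 genes at ZT1 to ZT21 (x axis, hours) in the 18 C57BL/6J libraries, with 1 line per age and 1 point per library. *Cps1*, *Otc* and *Gls2* at 6 months lay below every library of 2 months, and *Asl* was highest at ZT17 or ZT21 at each age.

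Levels at 6 months were compared with those at 2 months with ZT as a block. Of the 10 genes, 5 were lower at 6 months, *Cps1*, *Otc*, *Ass1*, *Asl* and *Gls2*, and 0 were higher, while 6.89% of all 13361 genes were called lower. The median log2 fold change of the 10 genes was -0.39, and that of all genes tested was 0.0039. The libraries of the 2 ages did not overlap for *Cps1*, *Otc* and *Gls2*, as for 2.14% of all genes tested in this direction.

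*Cps1* (ENSMUSG00000025991, chromosome 1, 67123026 to 67231259, plus strand), the entry enzyme of the cycle, showed the largest drop. Its level at ZT1, 5, 9, 13, 17 and 21 was 3510.2, 3640.2, 3474, 3541, 3021 and 3711 CPM at 2 months and 2615, 1709, 1718, 1815, 1810.1 and 2152 CPM at 6 months. Each library of 6 months was below each of 2 months, and the ZT1 library was the highest of its age. The log2 fold change was -0.83 (SE 0.12, adjusted p 0.000357), which is 43.6% of the level at 2 months lost. *Otc* (ENSMUSG00000031173, chromosome X, 10252305 to 10321024, plus strand), which makes citrulline, had 747, 779, 864, 663, 712 and 912 CPM at the 6 times at 2 months and 567, 366, 516, 568.3, 604 and 636 CPM at 6 months. The ZT5 library was the lowest of 6 months, and the ages did not overlap. It fell by 0.52 on the log2 scale (SE 0.12, adjusted p 0.00995).

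*Ass1* (ENSMUSG00000076441, chromosome 2, 31470207 to 31520672, plus strand) joins citrulline to aspartate, and *Asl* (ENSMUSG00000025533, chromosome 5, 130011258 to 130029247, minus strand) splits the product into arginine and fumarate. *Ass1* had 1853, 1742, 1259, 1715, 1787 and 2187 CPM at 2 months and 1228, 776, 629.8, 1085, 1078 and 1486 CPM at 6 months, lower at 6 months at each of the 6 times. The ranges overlapped, since ZT21 of 6 months exceeded ZT9 of 2 months, and the log2 fold change was -0.77 (SE 0.14, adjusted p 0.00231). *Asl* had 339, 352, 318, 691, 769 and 571 CPM at 2 months and 241, 260.3, 209, 333, 435 and 474 CPM at 6 months, and was also lower at each of the 6 times. Its ranges overlapped, with libraries of both ages higher at night than by day and a log2 fold change of -0.62 (SE 0.11, adjusted p 0.00152). The call of *Asl* needed the block of ZT, and without it the adjusted p was 0.128 at a log2 fold change of -0.64.

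The last enzyme of the cycle and the enzyme that makes the activator of CPS1 did not pass this test. *Arg1* (ENSMUSG00000019987, chromosome 10, 24915221 to 24927484, minus strand), arginase, was at 1389.9, 1505 and 1682 CPM at 2 months and 1191, 1380.2 and 1691 CPM at 6 months (lowest, median and highest of 6 libraries), with a log2 difference of -0.095 (SE 0.11, 95% interval -0.32 to 0.13, adjusted p 0.618). *Nags* (ENSMUSG00000048217, chromosome 11, 102145513 to 102149477, plus strand) was at 43.2, 61.3 and 76.2 and 52.1, 63.0 and 81.7 CPM, with a log2 difference of 0.12 (SE 0.11, 95% interval -0.11 to 0.35, adjusted p 0.521). The intervals of both differences excluded a loss of the size fitted for *Cps1*. The gene *Gm11586* overlaps *Nags* on the opposite strand, and whether counting used strand is not given in the sources used here, so its reads cannot be told apart where they overlap.

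Among the amino acid enzymes, *Gls2* (ENSMUSG00000044005, chromosome 10, 128194457 to 128210004, plus strand) was the 1 that fell. Its level was 316, 372, 272, 307, 284 and 339.8 CPM at 2 months and 215, 182, 179, 230.1, 189.9 and 257 CPM at 6 months, with every library of 6 months below every library of 2 months. The log2 fold change was -0.60 (SE 0.10, adjusted p 0.00124). *Sds* (ENSMUSG00000029597, chromosome 5, 120476526 to 120483932, plus strand) was at 67.6, 72.8 and 122 CPM at 2 months and 53.2, 68.2 and 148 CPM at 6 months, a log2 difference of -0.065 (SE 0.15, 95% interval -0.39 to 0.26, adjusted p 0.83). *Tat* (ENSMUSG00000001670, chromosome 8, 109990437 to 109999803, plus strand) was at 573, 976 and 1483 and 488, 904 and 1176 CPM, a log2 difference of -0.18 (SE 0.18, 95% interval -0.55 to 0.19, adjusted p 0.545). *Tdo2* (ENSMUSG00000028011, chromosome 3, 81957090 to 81976202, minus strand) was at 2054, 2385 and 2859.5 and 1569, 1997 and 2276 CPM, a log2 difference of -0.25 (SE 0.13, 95% interval -0.54 to 0.029, adjusted p 0.235). *Gls2* overlaps *Spryd4*, and *Sds* overlaps *Plbd2* and *Gm15690*, each on the opposite strand.

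**Figure D2:**
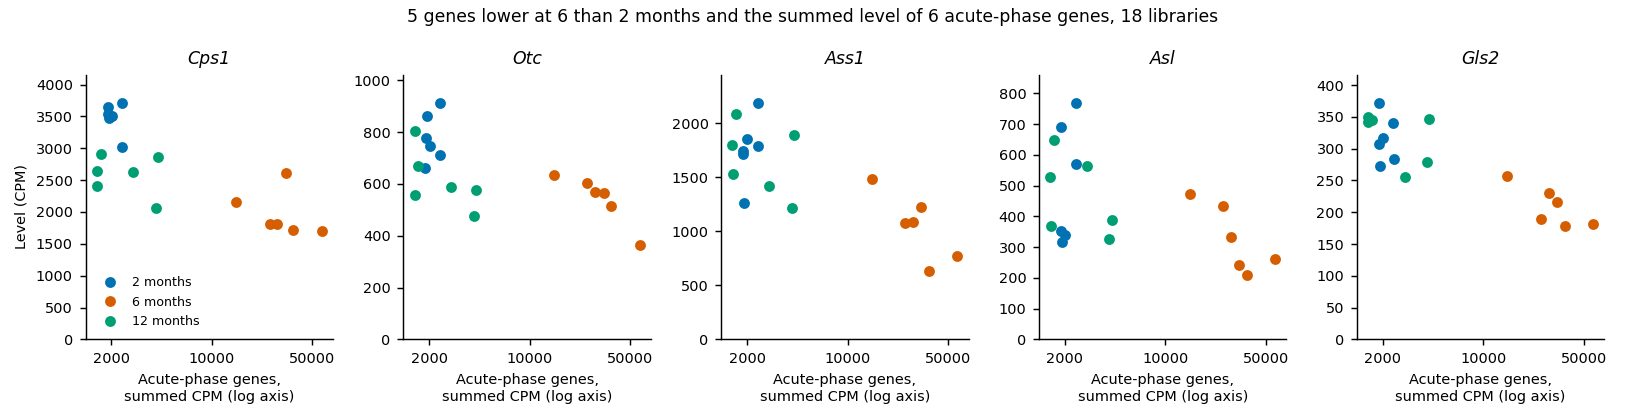
Level in CPM (y axis, from 0) of the 5 genes lower at 6 than at 2 months against the summed CPM of 6 acute-phase genes (x axis, log scale), 1 point per time-course library, coloured by age. The 6 libraries of 6 months all lie at 14746 CPM or more of acute-phase RNA, and those of 2 and 12 months at 4230 CPM or less.

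Acute-phase RNA moved with these drops, as all 6 of its listed genes were called higher at 6 than at 2 months, by 2.28 to 8.23 on the log2 scale. The library with the most acute-phase RNA, ZT5 of 6 months (58038 CPM), had the lowest *Cps1* and *Otc* of all 18, and the one with the least among the 6, ZT21 (14746 CPM), had the highest *Otc*, *Ass1*, *Asl* and *Gls2* of 6 months. The lowest *Ass1*, *Asl* and *Gls2* were at ZT9 (36793 CPM of acute-phase RNA), and the highest *Cps1* of 6 months was at ZT1 (32609 CPM), so the order of the libraries was not the same for the 5 genes. Neutrophil markers summed to 20.3 to 133 CPM at 6 months and 1.88 to 5.11 CPM at 2 months. Nearly all of that sum was *S100a8* and *S100a9*, and *Ly6g* was at 0 to 0.499 CPM at 6 months. Of 6 periportal markers outside the 10 genes, 3 were called lower and 0 higher, and of 10 pericentral markers 4 were called higher and 0 lower. The periportal sum was 1431 to 2357 CPM at 6 months and 1860 to 3090 CPM at 2 months. The pericentral sum did not rise, with 4441 to 6314 CPM at 6 months and 4696 to 7998 CPM at 2 months. Most of it was *Cyp2e1*, with 2987 to 4388 and 3299 to 6322 CPM. The part of these differences in the lower levels of *Cps1*, *Otc*, *Ass1*, *Asl* and *Gls2* was not tested, and in whole liver fewer periportal cells and less RNA per cell cannot be told apart.

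The other genes of amino acid metabolism were followed in 10 lists of 112 genes, of which 110 were tested. At 6 months 53 of the 110 were called lower than at 2 months and 7 higher, with a median log2 fold change of -0.33 over the 110. The lists of transamination, serine, glycine and proline (13 of 16 lower, 0 higher), branched-chain (13 of 17 lower, 0 higher) and histidine and lysine (7 of 8 lower, 0 higher) held most of the drops. The phenylalanine and tyrosine list had 5 of 7 lower, tryptophan and kynurenine 3 of 8, methionine and cysteine 3 of 9 lower and 1 higher, and nitrogen and ornithine handling 4 of 15 lower and 2 higher. The transporters had 4 of 10 higher and 2 lower, the regulators 2 of 11 lower and the gluconeogenic and glucocorticoid targets 1 of 9 lower. Among the drops of smallest p were those of *Dhtkd1* of lysine breakdown (log2 fold change -0.95, adjusted p 0.0002) and the arginine transporter *Slc7a2* (-0.83, adjusted p 0.000385). The rises of smallest p were those of *Slc3a1*, a subunit of a cystine and basic amino acid transporter (log2 fold change 2.24, adjusted p 3.97e-09), *Csad* of taurine synthesis (1.47, adjusted p 0.000423) and *Glul*, the pericentral glutamine synthetase (0.56, adjusted p 0.00184).

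**Figure D3:**
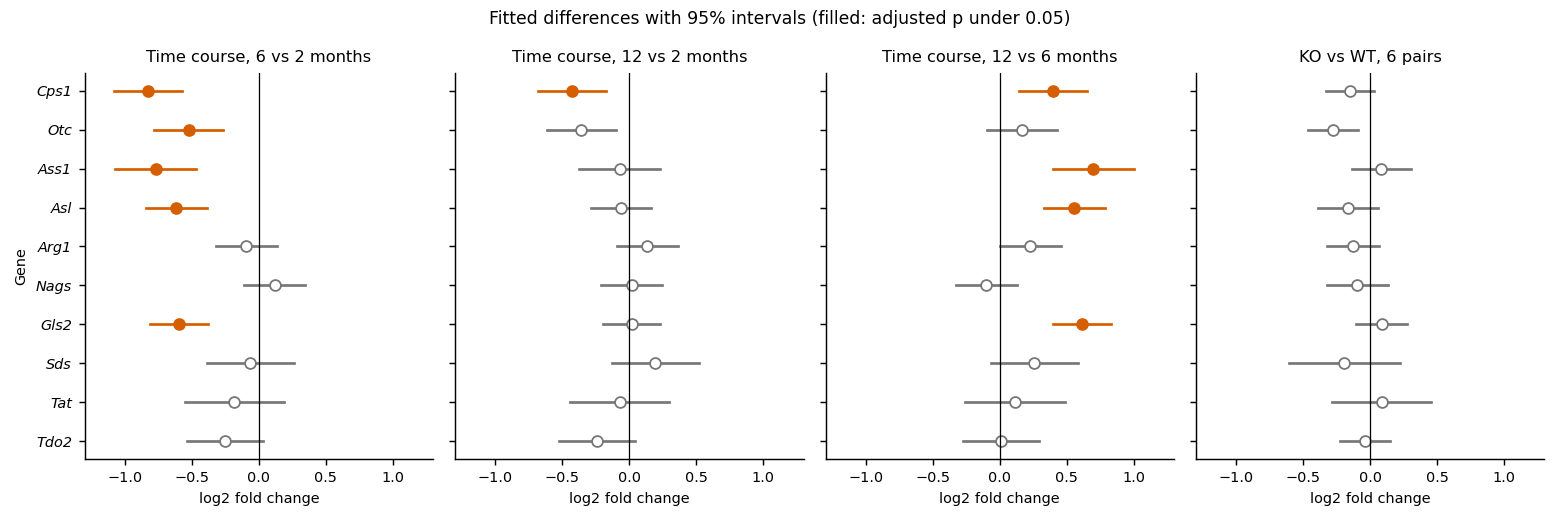
Fitted log2 fold changes (x axis) of the 10 genes (y axis) with 95% intervals, in 4 comparisons. Filled points passed an adjusted p under 0.05. They number 5 for 6 against 2 months, 1 for 12 against 2 months, 4 for 12 against 6 months and 0 for KO against WT.

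At 12 months the libraries of 9 of the 10 genes overlapped those of 2 months. *Cps1* was the 1 gene of the 10 called lower at 12 than at 2 months, where 5.27% of all genes were called lower, and 0 of the 10 were called higher. *Cps1* had 2064, 2855, 2405, 2639, 2627 and 2912 CPM at the 6 times of 12 months, all below the 6 libraries of 2 months, as for 1.88% of all genes tested. The log2 fold change was -0.43 (SE 0.12, adjusted p 0.0288). That call was lost in 11 of 24 fits that left out 1 ZT or 1 library (ZT9, ZT13 or ZT21, ZT5, ZT9, ZT13 or ZT21 of 2 months, or ZT1, ZT9, ZT13 or ZT21 of 12 months), with adjusted p 0.0501 to 0.0808, while the log2 fold change stayed between -0.45 and -0.33 in them. *Otc* had 475, 575, 802, 558, 587 and 667 CPM at 12 months and a log2 difference of -0.36 (SE 0.12, 95% interval -0.62 to -0.10, adjusted p 0.0662). It passed in edgeR without ZT5 of 6 months or ZT9 of 12 months (adjusted p 0.0288 to 0.0417), without all libraries of 6 months (adjusted p 0.0209, against 0.00893 for *Cps1*) and in DESeq2 (adjusted p 0.0291).

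Markers of other cells and zones moved in the same comparison. The 6 periportal markers summed to 1515 to 1692 CPM at 12 months and 1860.0 to 3090.2 CPM at 2 months, with 4 called lower and 1 higher, and of 10 pericentral markers 3 were called lower and 0 higher. B and plasma cell markers summed to 42.4 to 355 against 10.3 to 18.02 CPM (2 of 4 higher, 0 lower) and stellate markers to 377 to 527 against 308 to 358 CPM (2 of 5 higher, 1 lower). Their part in the lower *Cps1* was not tested.

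The other 8 genes differed between 12 and 2 months by log2 values from -0.24 (*Tdo2*, SE 0.13) to 0.19 (*Sds*, SE 0.15), none of them called. *Ass1* at 12 months was at 1216, 1665 and 2082 CPM and *Asl* at 328, 459 and 649 CPM, with log2 differences from 2 months of -0.071, adjusted p 0.798 and -0.063, adjusted p 0.758. *Gls2* was at 255, 344 and 349 CPM and *Arg1* at 1383, 1621 and 1938 CPM, with differences of 0.019, adjusted p 0.932 and 0.13, adjusted p 0.454. *Nags* was at 46.6, 60.7 and 78.0 CPM, *Sds* at 70.7, 96.5 and 129 CPM, *Tat* at 699, 928 and 1144 CPM and *Tdo2* at 1438, 1986 and 2936 CPM. Of the 110 listed genes, 23 were called lower and 4 higher at 12 than at 2 months, with a median log2 fold change of -0.18 (0.00069 over all genes). The rises of smallest p were those of *Csad* (log2 fold change 3.80, adjusted p 5.15e-08), whose median went from 25.8 CPM over 68.2 CPM at 6 months to 385 CPM, *Slc3a1* (1.17, adjusted p 3.46e-06) and *Qdpr*, which recycles tetrahydrobiopterin (0.54, adjusted p 0.0199). Among the drops of smallest p were those of *Aadat* (-1.12, adjusted p 7.50e-06) and *Kmo* (-0.56, adjusted p 0.000413), both of kynurenine metabolism.

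From 6 to 12 months 4 of the 10 genes rose, *Cps1*, *Ass1*, *Asl* and *Gls2*, against 8.79% of all genes. The 3 comparisons of ages share libraries, those of 2 months between the first and the second and those of 6 and 12 months with this one. The log2 fold change was 0.70 (SE 0.14, adjusted p 0.00388) for *Ass1*, 0.56 (SE 0.11, adjusted p 0.00247) for *Asl*, 0.61 (SE 0.10, adjusted p 0.000802) for *Gls2* and 0.40 (SE 0.12, adjusted p 0.0327) for *Cps1*. The call of *Asl* needed the block of ZT here too (adjusted p 0.186 without it). The rise of *Cps1* lost its call in 15 of 24 fits that left out 1 ZT (any but ZT1) or 1 library of 6 or 12 months (any but those of ZT1), with adjusted p 0.0526 to 0.116. *Otc* differed by 0.17, adjusted p 0.39 and was not called. Of the 110 listed genes 28 were called higher and 10 lower (median log2 fold change 0.17, and -0.0039 over all genes), with *Csad* (log2 fold change 2.34, adjusted p 7.26e-06), *Qdpr* (0.80, adjusted p 0.00139) and *Dhtkd1* (0.69, adjusted p 0.00216) leading the rises by p, and *Slc3a1* (-1.07, adjusted p 7.60e-06), *Glul* (-0.79, adjusted p 9.40e-05) and the ornithine aminotransferase *Oat* (-0.79, adjusted p 0.000242) leading the drops.

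The genotype experiment gave a second set of mice of these ages, in which 0 of the 6 acute-phase genes were called between 6 and 2 months in edgeR. There each age was collected at its own clock times, so age and time of day cannot be told apart. At 12 months 4 of the 10 genes were called lower than at 2 months, *Cps1*, *Ass1*, *Asl* and *Tat*, against 6.7% of all 13639 genes. At 6 months *Cps1* and *Asl* were, against 1.33% of all genes. *Cps1* went from 4092, 3922, 4193 and 3880.5 CPM (WT at H and L, then KO at H and L) at 2 months to 2997, 3174, 2586 and 2938 CPM at 6 months and 2099.7, 2254, 1874 and 1672 CPM at 12 months, with no overlap between any 2 ages. Its log2 fold change against 2 months was -0.46 (SE 0.10, adjusted p 0.0344) at 6 months and -1.03 (SE 0.10, adjusted p 0.000345) at 12 months. *Cps1* was called lower than at 2 months at both ages in both experiments. However, its call at 6 months here was lost in 8 of 12 fits that left out 1 library. It was also lost with WT alone, where 0 of all 12533 genes were called at 6 months. In the time course its call at 12 months was lost in 11 of 24 fits. In the time course its median was lower at 6 than at 12 months and in the genotype experiment higher, and the difference between the experiments was not tested.

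*Asl* went from 1124, 1169, 1144 and 906 CPM at 2 months to 666, 716, 602 and 839.5 CPM at 6 months and 581, 603, 518 and 403 CPM at 12 months. Both older ages lay below all 4 libraries of 2 months, by log2 fold changes of -0.62 (SE 0.14, adjusted p 0.0435) and -1.05 (SE 0.14, adjusted p 0.0013). *Ass1* had 3324, 3034, 3763 and 3308 CPM at 2 months, 2453, 2267, 2364 and 3275 CPM at 6 months and 2183, 2285, 2087 and 1965 CPM at 12 months, where the KO library at L of 6 months was as high as those of 2 months. Its log2 fold change was -0.65 (SE 0.13, adjusted p 0.0081) at 12 months, and at 6 months it was not called (-0.38, adjusted p 0.138) except without that library (adjusted p 0.0345). *Tat* had 2533, 1757, 2491 and 2413 CPM at 2 months, 1473, 1274, 1610.0 and 2252 CPM at 6 months and 1184, 1629.9, 1084 and 972 CPM at 12 months, with all 4 libraries of 12 months below those of 2 months and a log2 fold change of -0.91 (SE 0.21, adjusted p 0.018). Libraries lower without overlap were seen for *Cps1* and *Asl* at 6 months, against 6.25% of all genes, and for *Cps1*, *Ass1*, *Asl*, *Tat* and *Tdo2* at 12 months, against 9.97%. Beside them, the periportal markers summed to 1648 to 2273 CPM at 12 months and 2362 to 3899 CPM at 2 months (2 of 6 lower, 0 higher), and the pericentral ones had 2 of 10 lower and 1 higher. B and plasma cell markers summed to 94.9 to 173 against 16.9 to 31.5 CPM (3 of 4 higher, 0 lower) and stellate markers to 264 to 457 against 261 to 362 CPM (2 of 5 higher, 0 lower). Their part in the lower levels was not tested.

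The calls at 6 months in the genotype experiment were lost in most fits that left out 1 library. That of *Cps1* was lost in 8 of 12 (WT or KO at H of any age, KO at L of 2 months or WT at L of 6 months; adjusted p 0.0552 to 0.114), and that of *Asl* in 10 of 12 (any but KO at L of 6 or 12 months; adjusted p 0.0553 to 0.138). At 12 months *Cps1*, *Ass1* and *Asl* kept their calls in all 12 such fits and *Tat* in 7 of 12, losing it without either H library of 2 months, either H library of 12 months or KO at L of 12 months (adjusted p 0.051 to 0.0756). With the 6 WT libraries alone 0 of the 10 passed at either age. That fit called 0 of all 12533 genes at 6 months and 14 at 12 months. In it *Cps1* had log2 differences of -0.39 and -0.87 and *Asl* of -0.74 and -0.94. *Otc* (difference of 0.012, adjusted p 0.961 at 12 months), *Nags* (-0.071, adjusted p 0.827), *Sds* (-0.42, adjusted p 0.509), *Gls2* (-0.37, adjusted p 0.133), *Arg1* (-0.31, adjusted p 0.0862) and *Tdo2* (-0.32, adjusted p 0.0869) were not called in edgeR. DESeq2 called 6 of the 10 at 12 months, *Arg1* (adjusted p 0.0338) and *Tdo2* (adjusted p 0.0338) among them. It called 2037 of all 13639 genes, 1129 of them lower, where edgeR called 1660, 914 of them lower. *Gls2* passed without WT at L of 2 months (adjusted p 0.0104), *Arg1* without WT at L of 6 or 12 months (0.0426 to 0.0482) and *Tdo2* without WT at L of 6 months (0.0392). Of the 110 listed genes 26 were called lower and 6 higher at 12 months, and 1 lower and 5 higher at 6 months, with median log2 fold changes of -0.14 and 0.0043 (0.0020 and 0.0024 over all genes). At 12 months the drops of smallest p were those of *Odc1*, which turns ornithine into putrescine (log2 fold change -0.72, adjusted p 0.00108), the hepatic transcription factor *Creb3l3* (-0.81, adjusted p 0.00108) and the glucocorticoid target *Fkbp5* (-1.68, adjusted p 0.00123). The rises of smallest p were those of *Cdo1* (0.75, adjusted p 0.00264) and *Cbs* (0.47, adjusted p 0.02) of cysteine metabolism and of *Amt* of glycine cleavage (0.86, adjusted p 0.0113). At 6 months *Odc1* was the 1 listed gene called lower (-0.61, adjusted p 0.0103), and the rises of smallest p were those of the branched-chain phosphatase *Ppm1k* (0.94, adjusted p 0.011), *Amdhd1* of histidine breakdown (0.52, adjusted p 0.0161) and *Cbs* (0.53, adjusted p 0.0338).

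**Figure D4:**
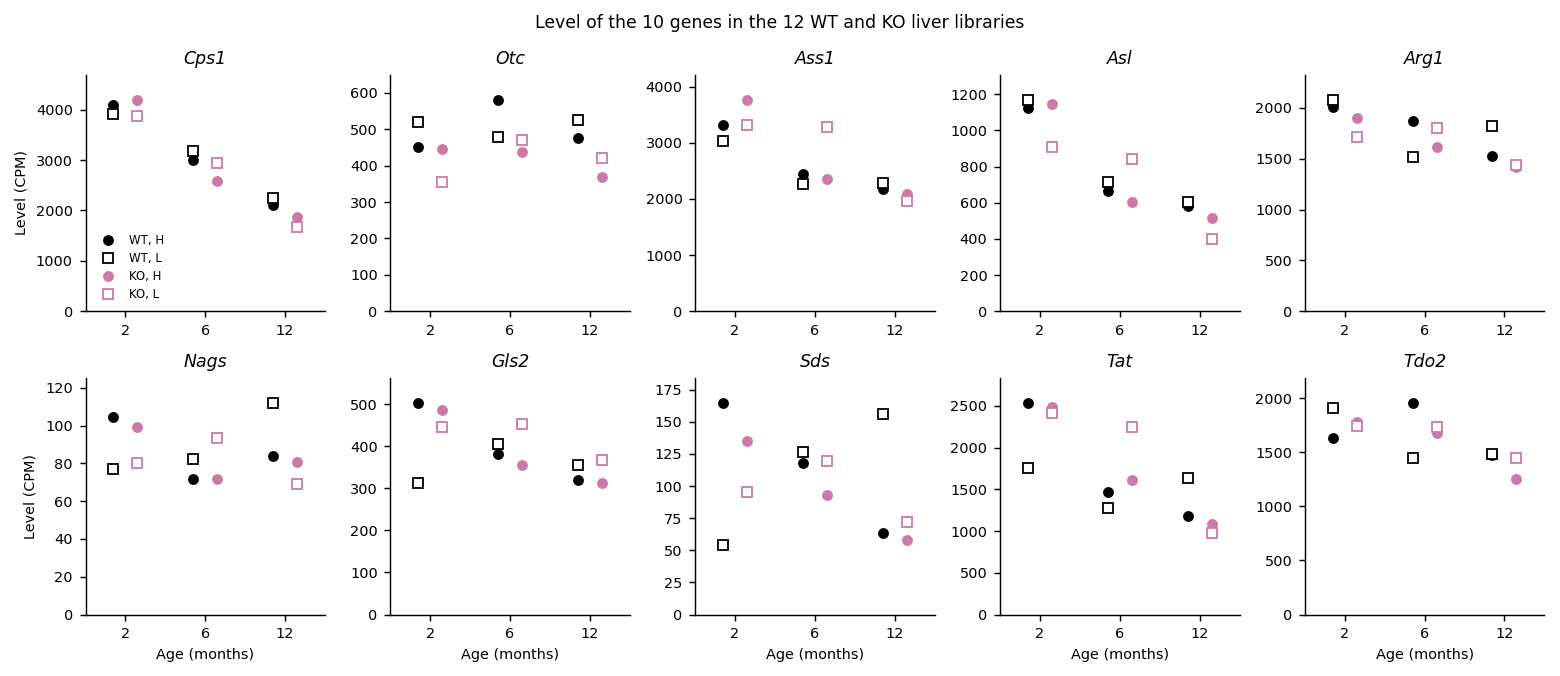
Level in CPM (y axis, from 0) of each of the 10 genes in the 12 WT and KO libraries by age (x axis, months), with black for WT, pink for KO, filled circles for H and open squares for L, 1 point per library. *Cps1* and *Asl* are lower at each older age in both genotypes, where age and clock time cannot be told apart. *Otc* of KO lies below its WT partner in 6 of 6 pairs.

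Daily change was asked of a 24-h curve common to the 3 ages, fitted with age as a block. It was called for 2 of the 10 genes, *Asl* and *Nags*, against 16.1% of all genes. *Asl* was low by day and high by night, at the mean over the ages from 298 CPM at ZT9 to 589 CPM at ZT17, with a fitted peak at ZT17.5 and a 2.13-fold rise from trough to peak (adjusted p 0.000247). Its libraries at ZT13, ZT17 and ZT21 were above those at ZT1, ZT5 and ZT9 at each of the 3 ages, and the call held in all 9 fits that left out 1 ZT or 1 age. In the genotype experiment *Asl* at ZT9 and ZT21 of 6 months was at 666 and 716 CPM in WT and 602 and 839.5 CPM in KO. At ZT5 and ZT21 of 12 months it was at 581 and 603 CPM in WT and 518 and 403 CPM in KO. The time course had 209 and 474 CPM and 389 and 649 CPM at these times, and the difference between the experiments was not tested. The ZT21 libraries of *Nags* in the time course were above the mean of their age at all 3 ages. The same held for *Cps1*, *Otc*, *Ass1*, *Asl*, *Arg1*, *Gls2* and *Tat*, of which only *Asl* had a called curve. How many of all genes did so was not counted, so it is not set apart from a trait of these libraries. The curve of *Nags* peaked at ZT22.0 with a 1.39-fold rise (adjusted p 0.0387). That call was lost in 6 of the 9 fits (without ZT9, ZT13, ZT17, ZT21, 2 months or 12 months; adjusted p 0.0563 to 0.297), and, without the filter on low counts, at an adjusted p of 0.0523.

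**Figure D5:**
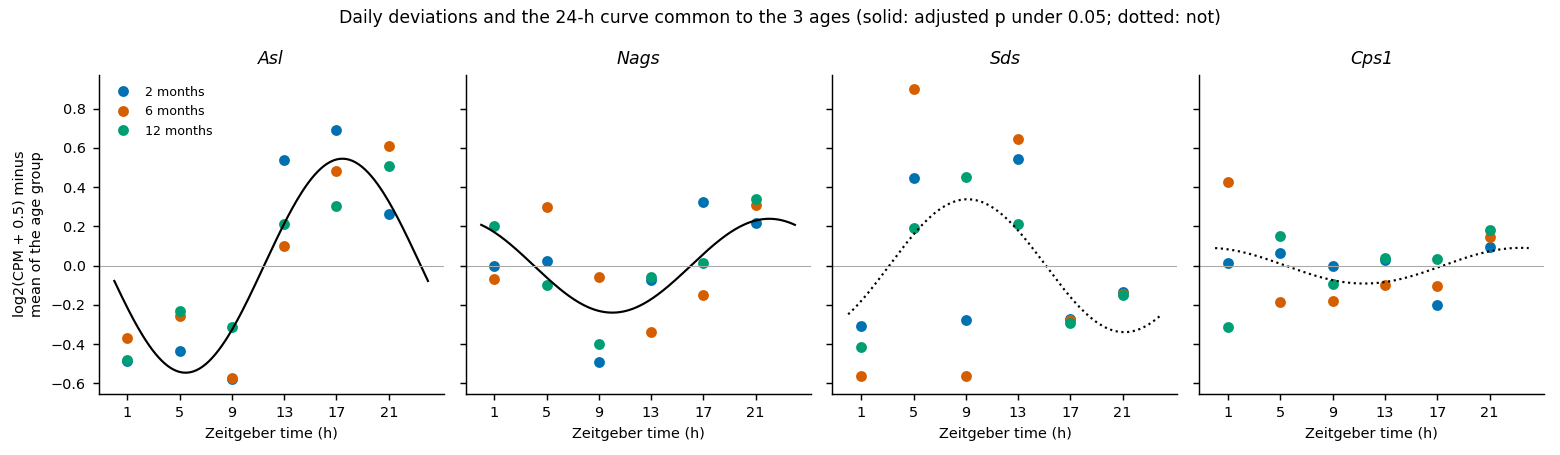
Deviation of log2(CPM + 0.5) from the mean of the age (y axis) at each ZT (x axis, hours) for *Asl*, *Nags*, *Sds* and *Cps1*, 1 point per library, with the fitted 24-h curve (solid where called, dotted where not). *Asl* is above its mean at ZT13 to ZT21 and below it at ZT1 to ZT9 at each age, and *Sds* is high at ZT5 and ZT13.

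*Sds* was not called with this curve but varied widely between times. At ZT1, 5, 9, 13, 17 and 21 it had 67.6, 115, 69.1, 122, 69.2 and 76.3 CPM at 2 months, 53.3, 148, 53.2, 124, 65.0 and 71.4 CPM at 6 months and 70.7, 108, 129, 109, 76.9 and 85.0 CPM at 12 months. It was high at ZT5 and ZT13 at all 3 ages, with ZT9 low between them at 2 and 6 months and highest of all at 12 months. The 24-h curve was not called (adjusted p 0.152) unless ZT9 was left out (0.0063), whereas a test of any difference between the 6 times, with 3 libraries each and added after the values were seen, so that it restates the pattern that prompted it, called *Sds* (adjusted p 0.0224) and *Asl* (adjusted p 0.000563) and not *Nags* (adjusted p 0.122), against 7.64% of all genes. Of the other genes *Ass1* peaked at ZT20.6 with a 1.44-fold rise (adjusted p 0.106, and 0.024 without 12 months) and *Tat* at ZT19.3 with a 1.47-fold rise (adjusted p 0.181). The fitted curves of *Cps1*, *Otc*, *Arg1*, *Gls2* and *Tdo2* rose by 1.06- to 1.13-fold, with adjusted p of 0.564 to 0.89. Of the 110 listed genes 37 were called, led by *Slc3a1* (adjusted p 1.47e-06, peak at ZT3.0), *Amt* (adjusted p 5.43e-06, ZT1.8) and *Gldc* (adjusted p 6.03e-06, ZT23.3), the last 2 of glycine cleavage.

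Within single ages there was 1 library per time. The cosinor called *Asl* at 2 months (peak at ZT16.6, 2.57-fold, adjusted p 0.0132; 5.13% of all genes) and at 6 months (ZT18.5, 2.16-fold, adjusted p 0.0447; 4.85%). At 12 months 0 of the 10 were called by edgeR, against 3.79% of all genes and 2 of the 10 at an unadjusted p under 0.05, where *Asl* rose 1.81-fold with a peak at ZT17.5 (adjusted p 0.159). An exact permutation test of rank order, in the manner of JTK_CYCLE, cannot give less than p = 0.0333 with 6 libraries. *Ass1* reached it at 2 months (best phase ZT21, as 8.64% of 12470 genes did) and *Nags* at 12 months (ZT21, as 6.46% did), whereas 0 of the 10 did at 6 months (8.3% of genes). *Asl* had exact p of 0.317, 0.317 and 0.533 at 2, 6 and 12 months.

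The change of the daily curve between ages was tested as an interaction. Of the 10 genes 0 were called between 6 and 2 months in edgeR or DESeq2, where 0.112% of all genes were called by edgeR and 1 of the 10, *Tat*, had an unadjusted p under 0.05 (0.0459, adjusted p 0.45). The fitted peak of *Tat* lay at ZT17.6 at 2 months and ZT22.6 at 6 months. Between 12 and 2 months 0 of the 10 were called by edgeR, which called 0% of all genes, and 0 of the 10 had an unadjusted p under 0.05 in edgeR or DESeq2.

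Loss of hepatic *Egr-1* was compared with WT over the 6 pairs, each pair being a block. In this fit 0 of the 10 genes were called in edgeR, against 1.58% of all genes, 1 had an unadjusted p under 0.05 and DESeq2 also called 0. The one with the lowest p was *Otc*. At H and L of 2, 6 and 12 months its WT libraries had 451, 519, 580.2, 477, 477 and 525.6 CPM and its KO libraries 447, 356, 437, 470.0, 369 and 421 CPM. KO was lower in 6 of 6 pairs, with log2 differences as small as -0.015 at H of 2 months and -0.022 at L of 6 months, and the ranges of the genotypes overlapped. The log2 difference of KO minus WT was -0.28 (SE 0.084, 95% interval -0.47 to -0.093, adjusted p 0.139), with an adjusted p of 0.055 in DESeq2. Without the 2 pairs whose *Egr-1* was not lower in KO it was -0.19 (adjusted p 0.592), and 0 of the 10 genes were called in edgeR.

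The other 9 genes had log2 differences of KO minus WT from -0.19 (*Sds*, SE 0.19) to 0.087 (*Gls2*, SE 0.086). For *Cps1* it was -0.15, adjusted p 0.399, lower in 5 of 6 pairs, for *Asl* -0.17, adjusted p 0.458, lower in 4 of 6, and for *Ass1* 0.083, adjusted p 0.738, lower in 3 of 6. *Arg1* (-0.13, adjusted p 0.517) was lower in 5 of 6 pairs, *Nags* (-0.10, adjusted p 0.702) in 3 and *Tdo2* (-0.039, adjusted p 0.871) in 4. *Sds* and *Tat* had the widest spread over the pairs, from -1.11 to 0.81 and from -0.75 to 0.82 on the log2 scale. *Tat* of KO was 0.82 higher at L of 6 months and 0.75 lower at L of 12 months, with medians of the 6 libraries of 1551 CPM in WT and 1931 CPM in KO. The effect of genotype did not pass the test of a difference between ages for any of the 10 (0.0147% of all genes did; 0 of the 10 had an unadjusted p under 0.05 in edgeR and 1 in DESeq2, and *Tat* had 0.0533 in edgeR), or between H and L (0.00733%; 0 of the 10 unadjusted in either). Within single ages 0 of the 10 were called at 2, 6 or 12 months in edgeR, which called 0, 5 and 0 of all 13639 genes. Of the 10, 0, 0 and 1 had an unadjusted p under 0.05.

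Of the 110 listed genes 4 were called between KO and WT, 2 higher and 2 lower, with a median log2 fold change of -0.036 (-0.0100 over all genes). Both that were higher in KO are pericentral genes of nitrogen handling, *Glul* (log2 fold change 0.43, adjusted p 0.0158) and *Oat* (0.89, adjusted p 0.0183), and those lower were *Csad* (-0.54, adjusted p 0.0257) and *Ftcd* of histidine breakdown (-0.46, adjusted p 0.034). Beside them, 3 of 10 pericentral markers, *Glul* and *Oat* among them, were called higher and 0 lower, 2 of 6 periportal markers lower and 0 higher, and 4 of 9 hepatocyte markers lower and 0 higher. The part of these in the differences of the 10 genes was not tested.

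The likeness of patterns over the 18 time-course libraries was described by Pearson's r of log2(CPM + 0.5), among the 7228 genes that averaged 10 CPM or more. These libraries share age groups, times and the acute-phase state, so r is given without a test. Among the 10 genes the closest pair was *Gls2* and *Ass1* (r = 0.90), followed by *Ass1* and *Cps1* (0.80), *Gls2* and *Cps1* (0.76) and *Otc* and *Cps1* (0.75). *Nags* ran against *Tdo2* (-0.42) and *Otc* (-0.38). The genes most like *Cps1* were *Mccc2* (0.94), *Mccc1* (0.94) and *Ndufs1* (0.94), those most like *Otc* *Aldh6a1* (0.95), *Sucla2* (0.94) and *Arhgap42* (0.91), and those most like *Ass1* *Pygl* (0.94), *Aldh7a1* (0.93) and *Slc25a5* (0.93). *Asl* was nearest to *C1qbp* (0.96), *Chchd10* (0.94) and *Mcrip2* (0.92), *Gls2* to *Asgr2* (0.93), *Echdc3* (0.92) and *Gstm6* (0.90) and *Nags* to *Ncoa5* (0.92), *Crip2* (0.88) and *Irak2* (0.88). The other matches were looser. For *Arg1* they were *Mrpl3* (0.81), *Ptrh2* (0.79) and *Sfxn1* (0.78), for *Sds* *Hmga1* (0.78), *Trmt1* (0.76) and *Gch1* (0.75), for *Tat* *Gm7336* (0.77), *Arglu1* (0.76) and *Cndp2* (0.75) and for *Tdo2* *Malsu1* (0.80), *Igsf5* (0.80) and *mt-Cytb* (0.76). Of these 30 matches, *Mccc1*, *Mccc2*, *Aldh6a1* and *Aldh7a1* belong to the listed genes of branched-chain and lysine breakdown.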

How the data were processed

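Livers of male mice were measured by polyA RNA-seq. Per the submitters' processing notes, fastp, HISAT2 and featureCounts were run on mm10. The study's methods give HISAT2 as the aligner and featureCounts for the expression levels, after removal of adapter and low-quality reads. Their versions and the annotation are not given in the sources used here. The authors deposited raw counts per gene, which were tested as deposited, with no authors' comparison columns and 0 unused columns. The study's text names several mice per group for the WT and KO data, and whether a library pools them, and whether counting used strand, is not given in the sources used here. The groups were taken from the labels, and the study's methods gave the clock times of H and L.

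Counts were fitted with edgeR 4.0.16 in R 4.3.3 (filterByExpr, TMM, glmQLFit and glmQLFTest, limma 3.58.1), with Benjamini-Hochberg adjustment over all genes tested and calls at 0.05. Age was fitted with ZT as a block, the daily curve as cosine and sine of 24 h with age as a block, genotype with the pair as a block, and age in the genotype experiment with genotype and H or L as terms. CPM used TMM-scaled totals, and logs used CPM + 0.5. Intervals are 95% intervals of the fit, and FPKM used exon lengths of GENCODE M21 (53669 of 54429 symbols and 55144 of 55471 identifiers matched). The rank test was an exact permutation over the orders of 6 values, run on the genes that averaged 1 CPM or more. Alternatives were RLE factors, no filter, DESeq2 1.42.0, no block, the study's log2 threshold of 1.2, subsets and leaving out each ZT, age or library. The fits without the 2 doubted pairs, without the libraries of 6 months and the test of any difference between times were added after the data were seen. The code was tested on simulated data. Python 3.11.15 with pandas 2.3.3, numpy 2.4.6, scipy 1.17.1 and matplotlib 3.10.9 did the rest.

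The 10 genes, the lists and the markers were chosen with earlier results of these data known. All 10 genes were always named. Of the listed genes, up to 3 called in each direction with the smallest p were named per comparison, and for each of the 10 genes the 3 most alike by Pearson's r. A listed gene that this rule would name is not reported here.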

Additional observations from a re-analysis of the deposited data

Results flagged for a closer look

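In groups of 6 libraries of 1 age, the lowest or highest library was set against the rest by Dixon's ratio for each of the 10 genes, 30 groups in all, and 1 library stood out. *Cps1* at ZT17 of 2 months was at 3021 CPM, against 3474 CPM or more in the other 5 libraries of that age (ratio 0.656, critical value 0.625). Chance marks about 1 in 20 such groups. The library was still above every library of 6 and 12 months, and the call of *Cps1* between 12 and 2 months held without it.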

How the results depend on the processing

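None of the 10 genes passed the study's log2 threshold of 1.2 between any ages, so the counts of 5, 1 and 4 became 0 for 6 against 2, 12 against 2 and 12 against 6 months. Between 12 and 2 months 2 passed without the filter, in DESeq2 and without the libraries of 6 months, and 0 to 2 when 1 ZT or library was left out. The common curve was called for 1 gene without the filter and for 1 to 2 in fits leaving one out. The rank test called 1, 0 and 1 genes at 2, 6 and 12 months where the cosinor called 1, 1 and 0. In the genotype experiment WT alone gave 0 at both ages, and 0 and 14 of all 12533 genes at 6 and 12 months. Leaving out 1 library gave 0 to 3 at 6 months. Without the pairing as a block, KO against WT called 0 of the 10, as with it, and 39 genes in all in place of 215.

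Some differences turned in sign, and none of these passed. All were near 0 in the main fit except that of *Sds* at 12 months in the genotype experiment (-0.42). Leaving one out gave, on the log2 scale, -0.19 to 0.050 for *Sds* between 6 and 2 months; between 12 and 2 months -0.17 to 0.041 for *Ass1*, -0.13 to 0.017 for *Asl*, -0.034 to 0.10 for *Nags*, -0.058 to 0.076 for *Gls2* and -0.24 to 0.061 for *Tat*; and between 12 and 6 months -0.058 to 0.30 for *Tat* and -0.10 to 0.13 for *Tdo2* (-0.0098 without the filter). For KO against WT it gave -0.0069 to 0.14 for *Ass1*, -0.15 to 0.021 for *Nags*, -0.061 to 0.25 for *Tat* and -0.10 to 0.0014 for *Tdo2*. The H pairs alone gave -0.065 for *Gls2* and -0.0078 for *Tat*, the L pairs alone 0.020 for *Tdo2*, and the fit without the 2 doubted pairs 0.033 for *Tdo2*. In the genotype experiment it gave -0.057 to 0.086 for *Otc* and -0.23 to 0.025 for *Nags* at 12 months, and -0.35 to 0.23 for *Sds* and -0.14 to 0.047 for *Tdo2* at 6 months. WT alone gave 0.11 for *Nags* and 0.031 for *Sds* at 12 months, and RLE factors and DESeq2 gave -0.0010 and -0.00010 for *Sds* at 6 months. The causes were not tested.

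Over all genes, KO against WT called 215, and 21 past the log2 threshold, 636 without the filter, 435 in DESeq2, 2 and 53 with the H or L pairs alone and 9 without the doubted pairs. Between 6 and 2 months 1832 became 263 past the log2 threshold and 1082 without the block of ZT, and between 12 and 2 months 1587 became 245 and 986.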
